A study of Mus musculus with 35 samples.

Results

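The regions described here are 346 of the 76018 ATAC-seq peaks of a mouse series on the endothelial-to-hematopoietic transition, chosen because they were open in hemogenic endothelium (HE) on 2 successive days and much less open in the population labelled pre-HSC II. ATAC-seq uses a transposase that cuts and tags open chromatin, so the count of reads in a peak grows with how accessible that stretch of DNA is. Counts were turned into CPM, the count per 1000000 counts of the same library, and averaged over the libraries of a group. A region was taken if it lay on an autosome, if the mean of E9.5 HE and the mean of E10.5 HE were each 8 CPM or more and at least 2 times the mean of endothelial cells (EC) of the same day, and if the mean of E10.5 pre-HSC II was at most 0.5 times that of E10.5 HE. The conditions on HE and EC alone were met by 594 of the 73975 autosomal peaks. The other 248 of these had pre-HSC II above 0.5 times E10.5 HE and are called here the retained regions. All of the levels in E9.5 and E10.5 HE, in EC of those days and in pre-HSC II were therefore used in the choice, and they are given below as a description with no test.

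The series has 35 libraries, each from a pool of 1500 sorted cells of embryos with the genotype 23GFP transgenic, which all groups share. HE and EC have 4 libraries each on embryonic day 8.5 (E8.5), on E9.5 and on E10.5. At E9.5 there are 3 further libraries of cells labelled pro-HSC/HPC, and at E10.5 there are 4 of pre-HSC I and 4 of pre-HSC II. HSC stands for hematopoietic stem cell and HPC for hematopoietic progenitor cell. The tissue is labelled E8.5 PAS+VU in the E8.5 and the E9.5 samples and E10.5 AGM+VU in the E10.5 samples, and the day was taken from the titles. Between E9.5 and E10.5 the day and the labelled tissue cannot be told apart. The labels used here do not say what drives the GFP reporter, which markers were sorted on, or whether the pools of a group came from separate litters. The p-values below therefore measure the spread between these samples, which may be technical.

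During this transition, endothelial cells of the large embryonic arteries take on a hemogenic fate and release rounded blood cells, some of which mature through pre-HSC stages into hematopoietic stem cells. Distal regulatory elements such as enhancers open and close as cells change identity, and an element that serves an intermediate state can be open there and closed on either side of it. An open region is not by itself an active one, since ATAC-seq reads accessibility and not what the element does. The regions are named by their mm9 position as the deposited table writes it, and carry no gene names, as no mm9 annotation was used.

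Summed over peaks, library 1 of pre-HSC II had the fewest counts, 456770, and library 1 of E9.5 HE the most, 7415315. The pre-HSC II libraries were the shallowest group, with totals between 456770 and 1241216, so that 8 CPM stood for 3.65 counts in library 1 of that group and for 9.93 counts in library 4. Sampling noise alone would separate 2 libraries more than pre-HSC I libraries 2 and 3 differed, their chi-square per degree of freedom being 0.466, while the remaining 50 pairs within groups gave 2.68 to 8.93. They were counted as 1 sample, which leaves n = 3 for pre-HSC I.

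The 346 regions were at their most open in HE of E9.5 and E10.5, were partly open in the progenitor populations of both days and were near the level of an ordinary peak in pre-HSC II. The median over regions of the group mean was 9.08, 14.9 and 17.3 CPM in HE of E8.5, E9.5 and E10.5, and 4.95, 4.42 and 5.86 CPM in EC of the same days. It was 9.54 CPM in pro-HSC/HPC, 11.5 CPM in pre-HSC I and 4.28 CPM in pre-HSC II. For all autosomal peaks the median was 4.68 CPM in pro-HSC/HPC, 4.44 CPM in pre-HSC I, 5.38 CPM in pre-HSC II and 4.36 CPM in E10.5 HE. Within a pool, fewer cells with a region open and less opening per cell cannot be told apart.

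**Figure D1:**
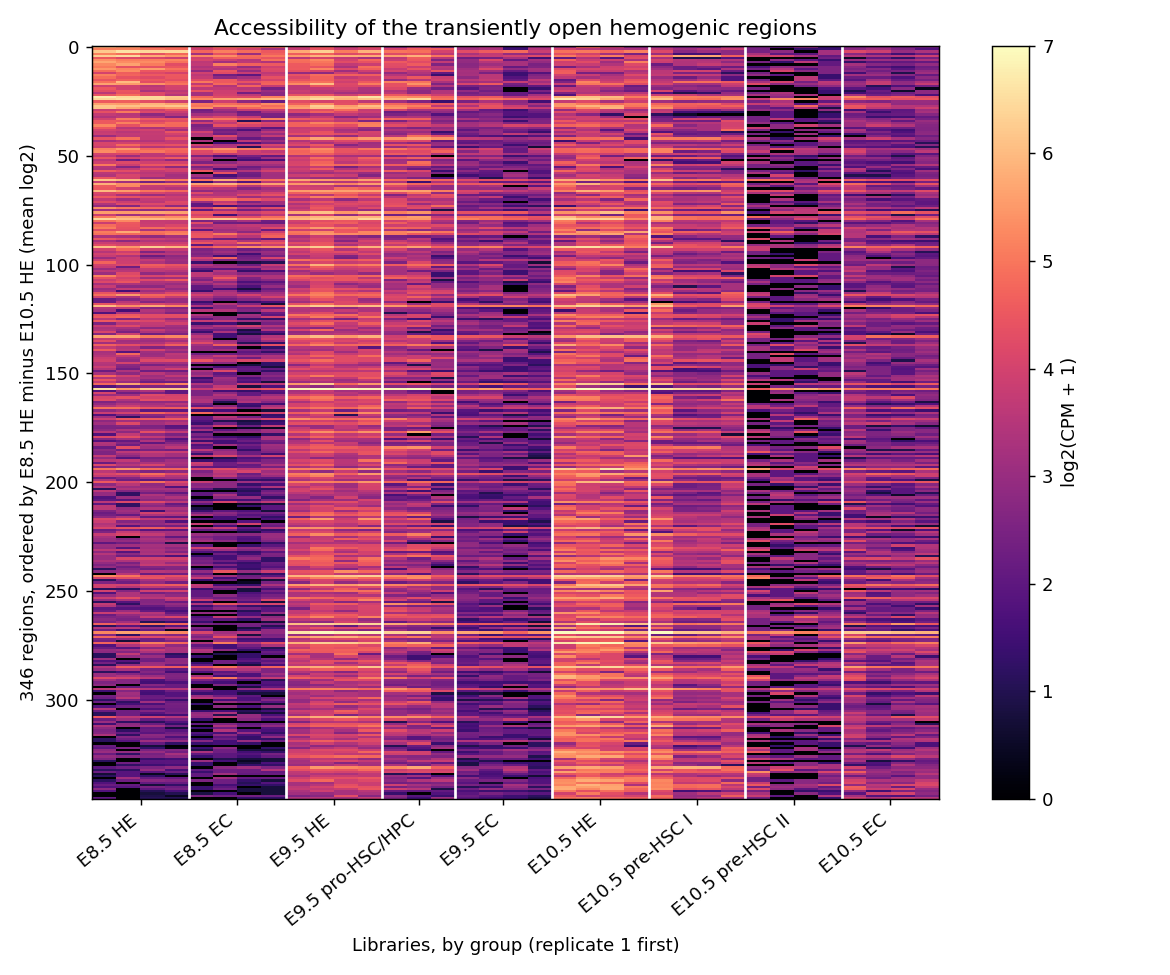
Accessibility of the 346 regions as log2(CPM + 1), with 1 row per region and 1 column per library, grouped by population; rows are ordered by the mean of log2(CPM + 1) in E8.5 HE minus that in E10.5 HE. The HE columns are the brightest blocks, the pre-HSC II columns hold the most rows at 0, and the lowest rows are dark in both E8.5 populations.

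Taken as a share of all counts of a library, the 346 regions together held 0.466% ± 0.0355 in E8.5 HE, 0.671% ± 0.0776 in E9.5 HE and 0.762% ± 0.118 in E10.5 HE (SD, n = 4 each). In EC of the 3 days they held 0.258% ± 0.0308, 0.208% ± 0.0315 and 0.268% ± 0.033 (SD, n = 4 each). The share was 0.435% ± 0.0953 in pro-HSC/HPC and 0.51% ± 0.156 in pre-HSC I (SD, n = 3 each). Pre-HSC II stood lowest, at 0.177% ± 0.012 (SD, n = 4). Libraries within a group were not alike. In E10.5 HE the share was 0.813%, 0.866%, 0.773% and 0.595% in libraries 1 to 4, and in pre-HSC I it was 0.69% in library 1 and 0.4%, 0.41% and 0.435% in libraries 2 to 4. Among pro-HSC/HPC libraries it was 0.485%, 0.495% and 0.325%. Library 1 of pre-HSC I lay above E10.5 HE library 4, and the other 3 lay below every E10.5 HE library and above every E10.5 EC library, which ran from 0.245% to 0.316%. The retained regions, by contrast, were level there: pre-HSC I had 0.465% ± 0.0706 (SD, n = 3) and pre-HSC II had 0.514% ± 0.0755 (SD, n = 4), beside 0.445% ± 0.0275 in E10.5 HE (SD, n = 4), a difference that follows from the condition on pre-HSC II.

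**Figure D2:**
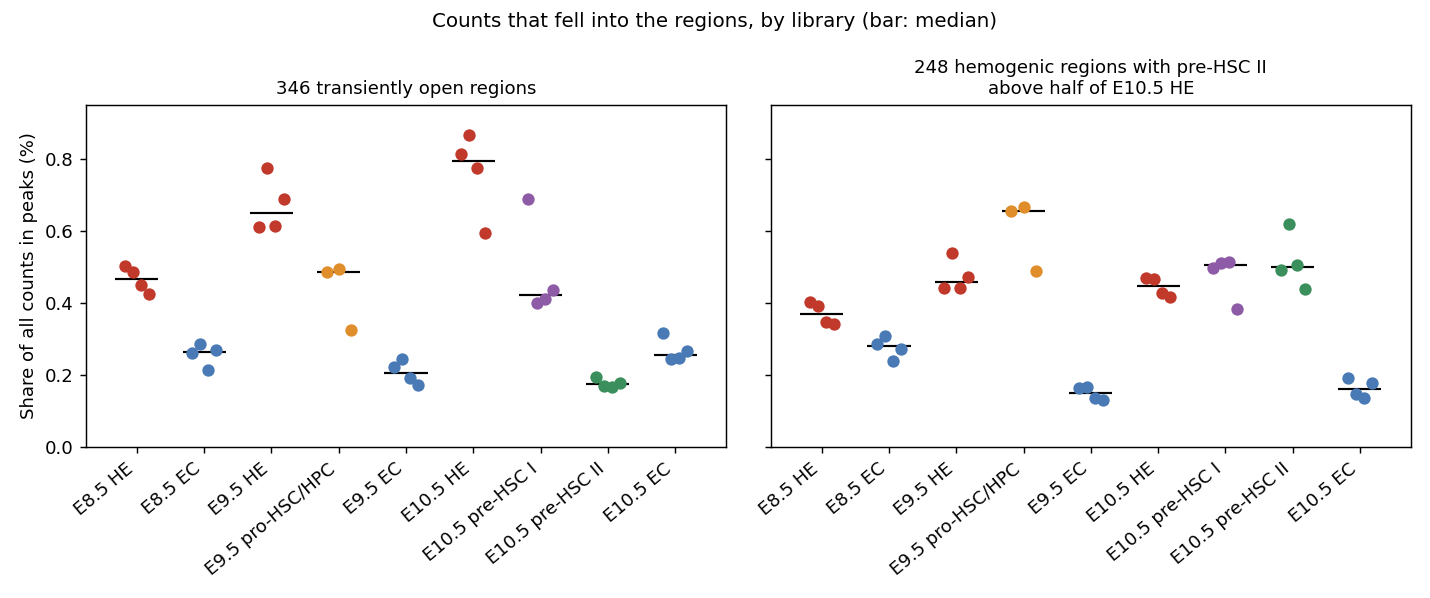
Percentage of each library's counts that fell into the 346 transiently open regions (left) and the 248 retained regions (right); each point is a library and each bar the median of its group. On the left the pre-HSC II libraries lie between 0.167% and 0.194%, below every HE, pre-HSC I and pro-HSC/HPC library.

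Region by region, the libraries that the rule averaged did not all separate. Every E9.5 HE library lay above every E9.5 EC library in 308 of the 346 regions (89%), where 7.72% of all tested peaks did so. Every E10.5 HE library lay above every E10.5 EC library in 209 regions (60.4%, against 2.9% of tested peaks), and every pre-HSC II library lay below every E10.5 HE library in 211 (61%, against 5.55%). All 3 separations held together in 137 regions (39.6%, against 0.468%). These shares follow from the choice of regions and nothing is read from them beyond how evenly the libraries carried it. The fold over EC was met least often by E10.5 HE library 4, which alone reached 2 times the EC mean in 199 regions, against 271, 323 and 277 regions for libraries 1 to 3.

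Among the 137 regions with separated libraries, the 10 with the widest gap in CPM between the lower HE mean and the highest of the EC and pre-HSC II means lay on chromosomes 3, 6, 8, 10, 11, 12, 13 and 18. The widest gap, 69.2 CPM, belonged to chr11:24126489-24127811. It had 113, 138, 149 and 116 CPM in E9.5 HE against 37.2, 48.4, 28.2 and 23.9 CPM in E9.5 EC, and 85.6, 126, 124 and 98.9 CPM in E10.5 HE against 33.1, 33.9, 33.6 and 30.1 CPM in E10.5 EC. In pre-HSC I it had 104, 87.5, 85.2 and 66.4 CPM, and in pre-HSC II 21.9, 38.9, 57 and 40.3 CPM. The pre-HSC I libraries overlapped those of HE. Pre-HSC II library 1 lay below every E10.5 EC library and libraries 2 to 4 lay above every one. The means were 39.5 ± 14.4 CPM in pre-HSC II and 32.7 ± 1.74 CPM in E10.5 EC (SD, n = 4 each). Both groups were used by the rule and their difference was not tested. In pro-HSC/HPC the region had 118, 135 and 81.1 CPM.

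The next region, chr18:60820717-60821920, was nearly closed in pre-HSC II. It had 4.38, 0, 0 and 4.83 CPM in pre-HSC II, against 47.7, 101, 107 and 69.9 CPM in E10.5 HE, while pre-HSC I lay between them at 52.1, 29.5, 32.5 and 31.7 CPM. Its EC libraries of the same day had 31.2, 20.1, 43 and 21.6 CPM, each above every pre-HSC II library. At E9.5 it had 63.8, 80.3, 73.9 and 84.1 CPM in HE and 53.3, 43.2 and 33.3 CPM in pro-HSC/HPC, against 19.8, 23.5, 18.8 and 17 CPM in EC. The 3 populations did not overlap on that day.

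The region chr12:119605290-119606515 was open in both E8.5 populations as well. It had 82, 63.9, 64.3 and 54.6 CPM in E8.5 HE against 64.1, 73.7, 46.5 and 38.7 CPM in E8.5 EC, with overlapping libraries. At E10.5 it had 85.6, 73.2, 80.75 and 38.1 CPM in HE against 26.4, 16, 15.2 and 29.3 CPM in EC. At E9.5 EC averaged 27.2 ± 6.66 CPM (SD, n = 4) and HE 68.8 ± 12.2 CPM (SD, n = 4). The rule required such a gap on the later days, and the change in EC from E8.5 was not tested. The region chr3:151606169-151607153 was also open in both E8.5 populations, with means of 51.4 ± 16.8 CPM in HE and 37.2 ± 11.3 CPM in EC at E8.5, and 46.5 ± 4.75 CPM in HE and 17.5 ± 2.57 CPM in EC at E9.5 (SD, n = 4 each). By contrast, chr6:141002272-141003297 was low at E8.5. It had 21.4, 11.3, 14.1 and 9.94 CPM in E8.5 HE, 43.6, 56.3, 55.4 and 37.5 CPM in E9.5 HE and 59.2, 87.9, 85.6 and 45.4 CPM in E10.5 HE, and the E8.5 libraries lay below all of the later ones.

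**Figure D3:**
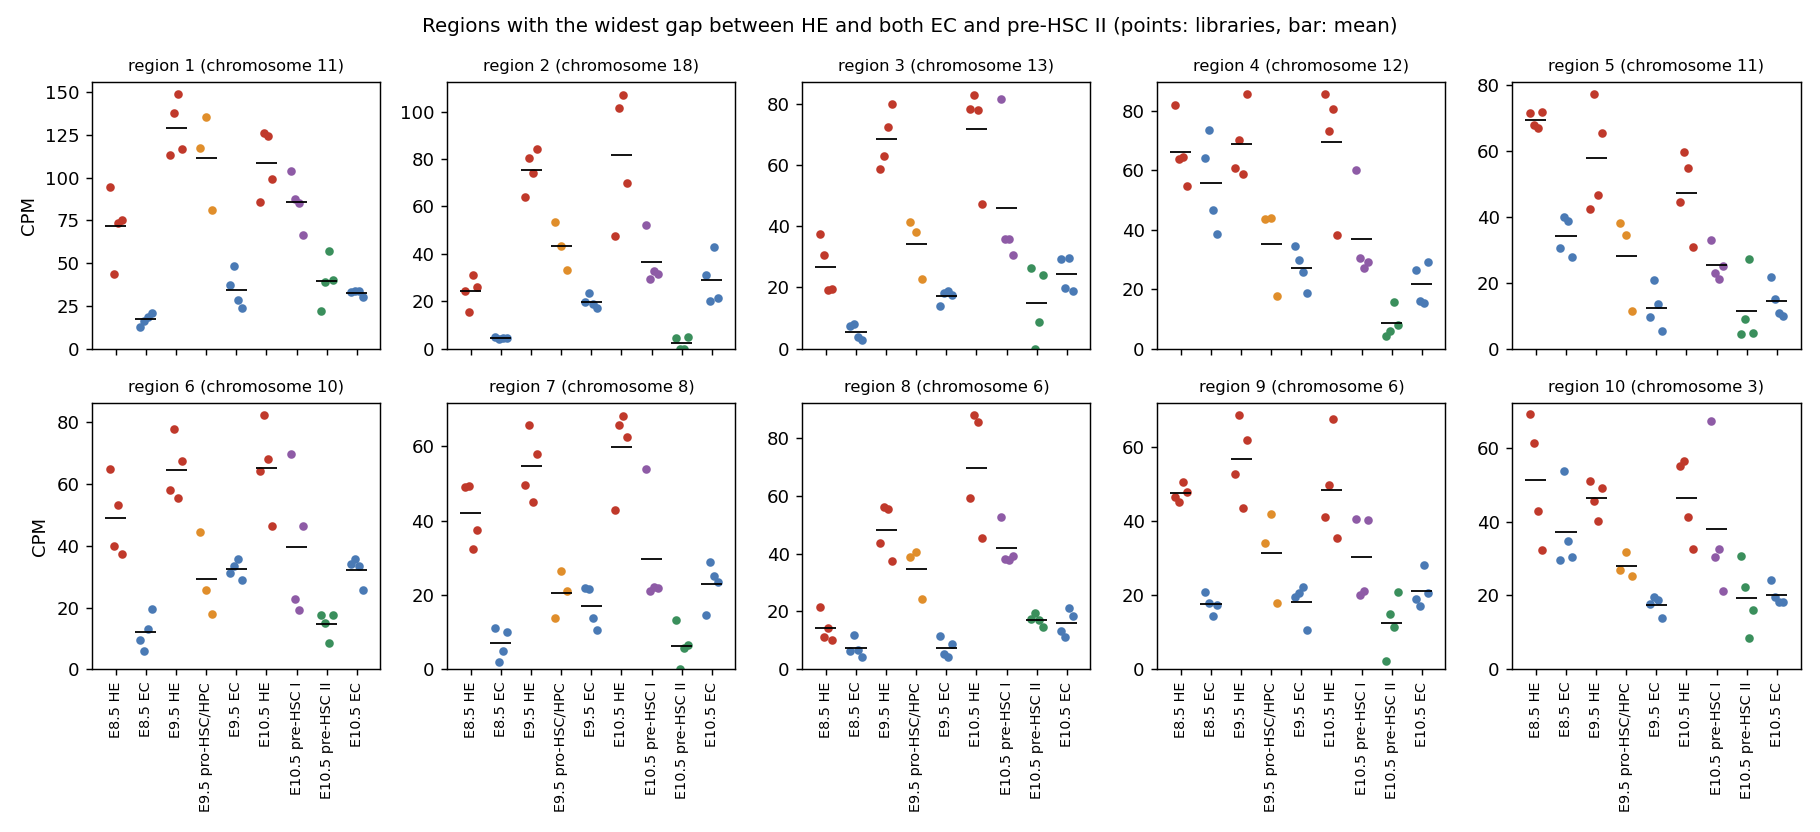
CPM of the 10 regions with the widest gap, 1 panel each in order of the gap, with a point per library and a bar at the mean of a group's libraries. Region 1 is the region of the widest gap on chromosome 11 and region 2 the region on chromosome 18. Regions 4 and 10 are about as high in E8.5 HE as later, and the other region on chromosome 11 has its highest mean in E8.5 HE. Region 8 is low at E8.5 in both populations, while the other region on chromosome 6 is about as high in E8.5 HE as in E10.5 HE.

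In pre-HSC II the regions had a median of 0.241 times the E10.5 HE mean, with quartiles of 0.139 and 0.353. The pre-HSC II mean was below the E10.5 EC mean in 248 of 346 regions (71.7%), in 0 of the 248 retained regions and in 43.8% of all autosomal peaks, with a median ratio of 0.7 over the 346. The rule used both of these groups and set pre-HSC II low, so nothing is read from that count. No count at all was found over the 4 pre-HSC II libraries in 6 regions (1.73%, against 2.71% of all autosomal peaks), and 1 to 3 counts in 28 more (8.09%, against 8.02%), so zeros were about as common as in any peak. The 6 were chosen for their zeros. They include chr11:64953693-64954393, which had 280 counts over the E10.5 HE libraries, a level at least 31.4-fold lower in pre-HSC II when set against a floor of 3 counts over that group (0.978 CPM). For chr13:19201228-19201844 the same bound was at least 21.3-fold lower, for chr18:55218311-55218791 15.8-fold, for chr6:17503224-17504190 15.1-fold, for chr7:123600371-123600894 12.9-fold and for chr15:6720507-6721039 10.2-fold. Pre-HSC I was not at 0 in any of them, with means from 4.86 ± 1.27 CPM at the chromosome 7 region to 16.6 ± 3.82 CPM at chr11:64953693-64954393 (SD, n = 3 each). These bounds cover counting error only and take no account of the choice of these regions for their zeros. Among counts between 10 and 49, even numbers made up 54.1% to 78.2%, depending on the library, so reads may not be independent and the bounds may be too high.

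The median count of the 346 regions was 2 in pre-HSC II libraries 1, 2 and 3 and 5 in library 4, and 129, 106, 100 and 45 regions had no count in libraries 1 to 4. A single pre-HSC II library thus says little about a single region.

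The progenitor populations were not part of the rule, but HE was chosen to be high and pre-HSC II to be low, so their ratios to either group are given without a test. Pre-HSC I stood at a median of 0.666 times E10.5 HE over the 346 regions, against 0.989 times over the 248 retained regions. Pro-HSC/HPC stood at 0.607 times E9.5 HE, against 1.13 times over the retained regions. The pre-HSC I mean was at most 0.5 times E10.5 HE in 74 of 346 regions (21.4%, against 11.1% of all autosomal peaks), between that and the HE level in 234 (67.6%, against 38.4%) and above it in 38 (11%, against 50.6%). The pro-HSC/HPC mean was at most 0.5 times E9.5 HE in 111 (32.1%, against 10.9%), between in 197 (56.9%, against 33.05%) and above in 38 (11%, against 56.1%). Both progenitor populations were at most 0.5 times HE of their day in 36 regions (10.4%, against 2.35%). Both were above HE in 10, for which the share of all autosomal peaks was not computed, so nothing is read from that count. Within E10.5, the pre-HSC II mean was below the pre-HSC I mean in 341 of 346 regions (98.6%, against 46.9% of all autosomal peaks) and at most 0.5 times it in 258 (74.6%, against 16.5%), with a median ratio of 0.351. The condition on pre-HSC II bears on these last counts directly. The exceptions, named after their values were seen, were chr12:80820074-80820577, chr15:30312409-30313432, chr2:112488676-112489554, chr6:134525204-134525812 and chr7:96825871-96826461. In each of these the pre-HSC I mean was 0.434 times that of E10.5 HE or less, and the largest excess of pre-HSC II over pre-HSC I, 4.91 ± 5.1 CPM (SD, n = 4) against 3.88 ± 0.905 CPM (SD, n = 3) at chr6:134525204-134525812, was smaller than the spread of the pre-HSC II libraries.

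**Figure D4:**
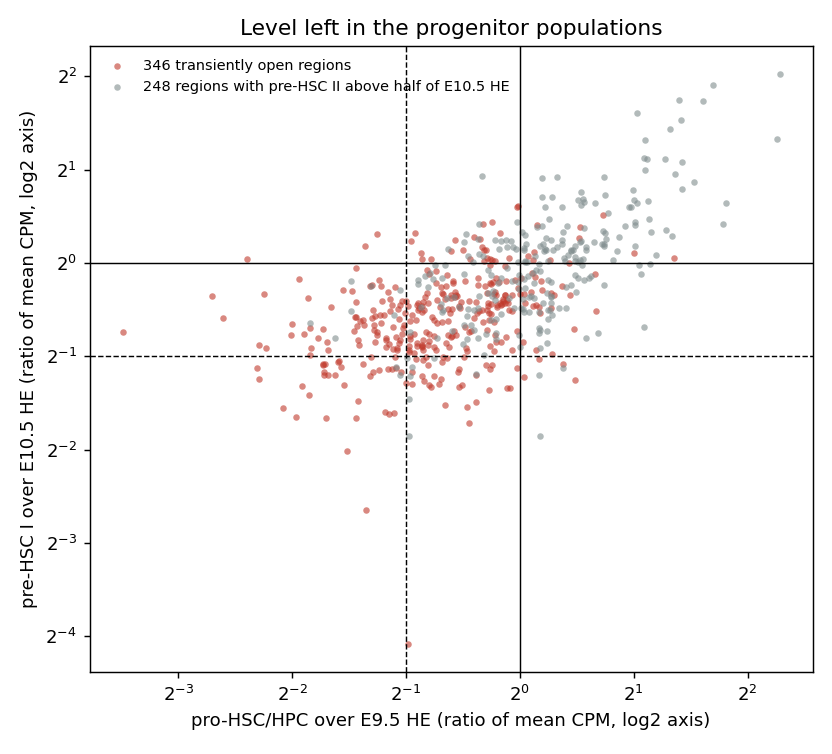
Ratio of pre-HSC I to E10.5 HE (vertical) against the ratio of pro-HSC/HPC to E9.5 HE (horizontal), both of mean CPM on log2 axes, for the 346 regions and the 248 retained regions; solid lines mark equal levels and dashed lines a ratio of 0.5. Most of the 346 regions lie between the dashed and solid lines or below on both axes, and 10 lie above equality on both.

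The regions differed widely in how open they were in the progenitors. The lowest pre-HSC I ratio, 0.0591, was at chr12:80820074-80820577, where pre-HSC I had 0.488 ± 0.65 CPM (SD, n = 3) against 8.26 ± 6.41 CPM in E10.5 HE (SD, n = 4), whose libraries spread nearly as widely as their mean. The highest, 1.52, was at chr8:34249186-34249870, where pre-HSC I had 26.2 ± 8.19 CPM (SD, n = 3) and pre-HSC II had 1.55 ± 1.8 CPM (SD, n = 4), beside 17.2 ± 11.8 CPM in E10.5 HE (SD, n = 4). The low level there was seen in pre-HSC II and not in pre-HSC I. In pro-HSC/HPC the lowest ratio, 0.089, was at chr16:15958722-15959132, with 0.938 ± 0.887 CPM (SD, n = 3) against 10.54 ± 1.13 CPM in E9.5 HE (SD, n = 4). In pre-HSC I it had 10.4 ± 0.0709 CPM (SD, n = 3), beside 8.3 ± 2.64 CPM in E10.5 EC (SD, n = 4). It was not called between the progenitors of E9.5 and those of E10.5. The highest, 2.55, was at chr6:4902835-4903656, where pro-HSC/HPC had 24.9, 22.9 and 17 CPM, each above every E9.5 HE library (9.57, 10.3, 5.98 and 8 CPM). The region chr7:133764688-133765548 was among the 3 highest by both ratios, with 29.5 ± 9.86 CPM in pro-HSC/HPC (SD, n = 3) against 17.7 ± 5.59 CPM in E9.5 HE (SD, n = 4), while pre-HSC I had 26.7 ± 6.71 CPM (SD, n = 3) against 18.8 ± 7.59 CPM in E10.5 HE (SD, n = 4). These extremes were picked for their values.

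Whether the regions already set hemogenic cells apart a day before the first day of the rule was tested in the E8.5 libraries, none of which entered the choice. The HE mean was above the EC mean in 295 of 346 regions (85.3%, against 44.9% of all autosomal peaks). The conditions of the later days, 8 CPM or more in HE and at least 2 times EC, were met in 96 (27.7%), against 3.24% of autosomal peaks. In the fit, 58 regions were higher in E8.5 HE than in E8.5 EC and 1 was lower at an adjusted p under 0.05 (edgeR quasi-likelihood test, Benjamini-Hochberg over 67131 peaks). Of all tested peaks 1.3% were called higher and 0.131% lower, and of the 19305 autosomal peaks with 8 CPM or more in E9.5 HE and E10.5 HE, 3.31% were called higher. The median log2 fold change was 1.03 over the 346 regions, 0.65 over the retained regions, of which 25 of 248 were called higher, and 0.02 over all tested peaks. At an unadjusted p under 0.05, 183 regions were higher and 5 lower, against 9290 of the 67131 tested peaks in either direction. Every E8.5 HE library lay above every E8.5 EC library in 104 regions (30.1%, against 6.08% of tested peaks) and below in 5 (1.45%, against 5.65%). The count filter used all groups, so a region could pass it by its level on the later days. With only the 2 E8.5 groups filtered and fitted by edgeR, 247 of the 346 regions were tested. Of these, 84 were called higher, against 1975 of 40680 tested peaks, and 2 lower, against 998. The 84 included 51 of the 58, and the region called lower was not tested.

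**Figure D5:**
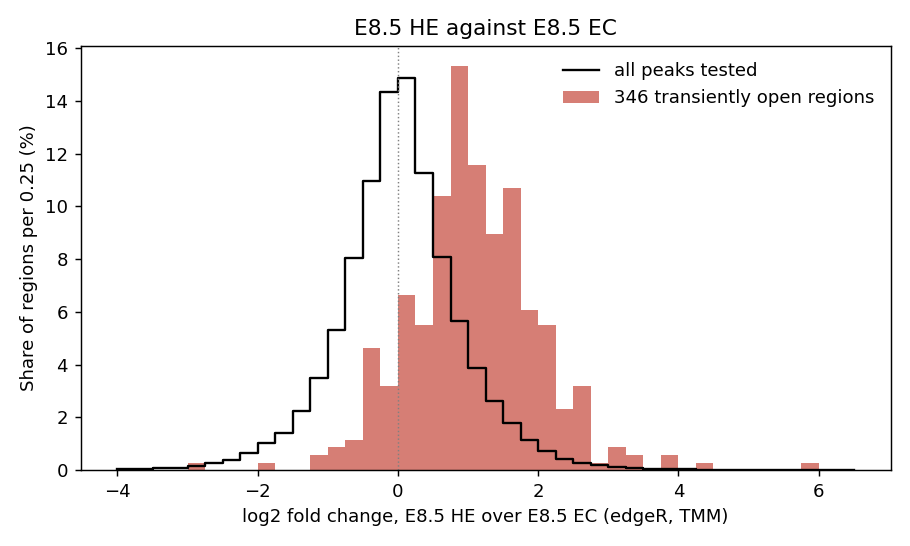
Distribution of the log2 fold change of E8.5 HE over E8.5 EC for the 346 regions (filled) and all 67131 tested peaks (line), as the percentage of each set per bin of 0.25. The filled distribution is centred near 1.03 and the line near 0.02.

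The 58 called regions had log2 fold changes from 1.04 to 5.998 with a median of 2.05. The smallest adjusted p, 1.55e-06, was again at chr11:24126489-24127811, with 94.2, 43.9, 73.7 and 75.2 CPM in E8.5 HE against 12.8, 15.9, 18.8 and 20.8 CPM in E8.5 EC and a log2 fold change of 2.13 ± 0.28 (SE). At chr8:47973663-47974596 E8.5 HE had 49, 49.2, 32.4 and 37.5 CPM against 11.2, 1.99, 4.88 and 10 CPM in E8.5 EC, with a log2 fold change of 2.59 with an SE of 0.38 (edgeR, adjusted p = 1.83e-05); without libraries 1 and 2 of both E8.5 populations this call was lost, at an adjusted p of 0.0609. At chr18:60820717-60821920 it had 24.5, 15.3, 31.1 and 26 CPM against 4.81, 3.98, 4.5 and 4.3 CPM in EC, with 2.58 with an SE of 0.38 (edgeR, adjusted p = 3.11e-05). In all 3 the lowest HE library stood above the highest EC library. The chromosome 18 region was more open in HE of both later days, with means of 24.2, 75.5 and 81.5 CPM on the 3 days. The chromosome 8 region was closer to its later level, with means of 42, 54.6 and 59.9 CPM on the same days.

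The region with the highest mean in E10.5 HE, chr13:81490097-81491849, was called as well. It had 36.7, 49.2, 41.9 and 37.5 CPM in E8.5 HE, against E8.5 EC libraries between 6.45 and 16 CPM, a log2 fold change of 2.15 with an SE of 0.32 (edgeR, adjusted p = 3.4e-05). At E10.5 it had 174, 158, 186 and 63.5 CPM in HE and 127, 74.2, 70.8 and 58.5 CPM in pre-HSC I, against 74.2, 74.3, 65.4 and 58.8 CPM in EC. Library 4 of E10.5 HE lay within the range of the EC libraries there, and pre-HSC I libraries 2 to 4 lay within or just below it.

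The single region called lower in E8.5 HE, chr3:127942807-127943475, had 0, 0, 0.884 and 0.349 CPM in E8.5 HE against 4.81, 3.98, 4.13 and 3.59 CPM in E8.5 EC. Its log2 fold change was -2.93 with an SE of 0.75 (edgeR, adjusted p = 0.0276). In HE of the following days it had 4.72, 5.55, 18.5 and 5.56 CPM at E9.5 and 21.4, 14.1, 16.5 and 15.4 CPM at E10.5, while EC had 8.5, 2.61, 2.33 and 4.42 CPM at E10.5. The rule required more in HE than in EC at E10.5, so that order is no result. At E8.5 both populations were low there, with means of 0.308 CPM in HE and 4.13 CPM in EC. With only the E8.5 groups compared, the region was not tested. The call was lost in 8 of the alternatives tried, with adjusted p-values from 0.0535 to 0.502.

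The count of called regions depended on the libraries. Libraries 1 and 2 of both E8.5 populations were shallow, with 1004036 to 1634087 counts against 2666067 to 5733154 in libraries 3 and 4, and without them 3 of the 346 regions and 17 peaks in all were called higher. All 58 kept their sign, and the median log2 fold change was 1.03 with and without these libraries. Leaving out E8.5 HE library 3, E8.5 EC library 2 or E8.5 EC library 3 left 35, 37 or 29 calls, and DESeq2 made 91.

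Many regions already had signal at E8.5. The E8.5 HE mean was 8 CPM or more in 194 regions (56.1%, against 34.8% of all autosomal peaks) and the E8.5 EC mean in 102 (29.5%, against 36.2%), and both means were under 3 CPM in 20 (5.78%, against 23.3%). The E8.5 HE mean was above the E9.5 HE mean in 68 regions (19.7%, against 54.6%) and at most 0.5 times it in 139 (40.2%, against 9.67%). E9.5 HE was chosen to be high, so the last pair of counts follows in part from the rule. The word transient refers here to the lower level in pre-HSC II, which the rule fixes, and says nothing of the level at E8.5.

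Pro-HSC/HPC of E9.5 was compared with HE of E8.5, which has the same tissue label. Neither group entered the rule. The day and the population change together here. At an adjusted p under 0.05 by edgeR, 31 regions were higher in pro-HSC/HPC (8.96%, against 3.72% of tested peaks) and 16 were lower (4.62%, against 5.93%). Of the 19305 autosomal peaks with 8 CPM or more in E9.5 HE and E10.5 HE, 2.74% were called higher and 8.94% lower, so lower calls were no more frequent in the regions than in either background. The median log2 fold change was 0.0039 over the 346 regions, with a sign that changed between alternatives, and 0.04 over all tested peaks, and 0.59 over the retained regions, of which 80 of 248 were higher and 3 lower. Every pro-HSC/HPC library lay above every E8.5 HE library in 51 regions (14.7%, against 12.1% of tested peaks) and below in 55 (15.9%, against 14.6%), both near the background.

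The 4 higher regions with the smallest adjusted p had little signal at E8.5, with E8.5 HE means between 3.25 and 4.53 CPM. At chr10:105197187-105198064 pro-HSC/HPC had 37.8, 52.5 and 24.3 CPM against 3.06, 3.99, 4.77 and 6.28 CPM in E8.5 HE, a log2 fold change of 2.98 with an SE of 0.44 (edgeR, adjusted p = 3.7e-06). E8.5 EC had 0, 5.98, 7.88 and 5.02 CPM there, so both E8.5 populations were low, while E9.5 HE had 23.9, 44.3, 38 and 34.1 CPM. The region had 52.1, 59.9, 58.4 and 26.8 CPM in pre-HSC I and 6.57, 13.4, 11.4 and 8.86 CPM in pre-HSC II, beside a mean of 42.3 CPM in E10.5 HE. The rule required the low level in pre-HSC II, and pre-HSC I was not tested against HE or pre-HSC II. At chr6:4902835-4903656, the region with the highest pro-HSC/HPC ratio, E8.5 HE had 1.84, 5.32, 2.12 and 3.84 CPM and the log2 fold change was 2.75 with an SE of 0.46 (edgeR, adjusted p = 3.19e-05). The other 2 were chr4:137510854-137511465 and chr12:46171172-46171992, with log2 fold changes of 2.58 ± 0.51 and 2.28 ± 0.46 (SE) and adjusted p-values of 0.000408 and 0.00053 by edgeR. The call at the first was lost after thinning all libraries to the depth of the shallowest, at an adjusted p of 0.0576. At the first of these pro-HSC/HPC had 23.6, 30 and 20.3 CPM against 7.34, 3.99, 3.89 and 2.27 CPM in E8.5 HE. At the other, pro-HSC/HPC had 15.8, 17.2 and 16.2 CPM against 3.67, 2.66, 2.83 and 3.84 CPM in E8.5 HE, and its E10.5 HE libraries were higher again, at 47.7, 37.2, 33.9 and 21.8 CPM. Its low pre-HSC II mean did not hold for library 1, which had 39.4 CPM against 5.98, 7.13 and 16.1 CPM in libraries 2 to 4.

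The 4 lower regions with the smallest adjusted p all had their highest mean in E8.5 HE. At chr10:30788352-30789218 pro-HSC/HPC had 5.77, 9.71 and 4.87 CPM against 55.1, 43.9, 23.7 and 28.1 CPM in E8.5 HE, a log2 fold change of -2.41 with an SE of 0.46 (edgeR, adjusted p = 0.00021). The mean in HE of the 3 days was 37.7 ± 14.5, 16.9 ± 4.69 and 12.8 ± 9.29 CPM (SD, n = 4 each), and in EC 25.6 ± 4.94, 6.09 ± 3.14 and 4.61 ± 0.728 CPM (SD, n = 4 each). At chr11:89977606-89979851 pro-HSC/HPC had 31, 29.1 and 15.4 CPM against 73.4, 96.5, 85.2 and 87.7 CPM in E8.5 HE, a log2 fold change of -1.73 with an SE of 0.33 (edgeR, adjusted p = 0.000247). This region was also higher in E8.5 HE than in E8.5 EC, which had 25.6, 33.9, 27.8 and 22.2 CPM (log2 fold change 1.77, SE 0.30, adjusted p = 0.000357 in edgeR), and it had 17.1, 5.71, 7.66 and 6.09 CPM in pre-HSC I. The other 2 of the 4, chr5:87991431-87992119 and chr13:31622999-31624002, had log2 fold changes of -2.11 ± 0.54 and -1.88 ± 0.50 (SE) and adjusted p-values of 0.00706 and 0.00874 by edgeR. Both calls were lost in some alternatives, at adjusted p-values up to 0.0901.

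Without libraries 1 and 2 of E8.5 the test called 12 regions higher and 4 lower. Without pro-HSC/HPC library 1 it called 14 higher and 9 lower, without pro-HSC/HPC library 2 it called 19 higher, without E8.5 HE library 4 it called 20 higher, and without pro-HSC/HPC library 3, in which the regions held the lowest share of counts of that group, it called 3 lower.

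Pre-HSC I of E10.5 was compared with pro-HSC/HPC of E9.5, which differ in day, labelled tissue and population. None of the 346 regions was called in either direction by edgeR, where 0.00745% of tested peaks were called higher and 0.00894% lower. At an unadjusted p under 0.05, 52 were higher in pre-HSC I and 15 lower, against 5354 of the 67131 tested peaks in either direction. DESeq2 called 7 higher and 1 lower, against 68 higher and 133 lower of the 49489 peaks it tested. The median log2 fold change was 0.24 over the 346 regions and -0.02 over all tested peaks. This median rested on pre-HSC I library 1, without which it was -0.03. With 3 samples a group, the lack of calls does not show that the regions were equally open in the progenitors of both days.

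The rule cuts through a continuum of levels. At the floor of 8 CPM the last region taken, chr17:82095822-82096504, had 8.02 CPM as the lower of its HE means, and the first left out, chr13:96305069-96306362, had 7.98 CPM. At the fold over EC, chr10:30717412-30718784 was taken with a ratio of 2.0002 and chr9:18525459-18527522 left out with 1.997. At the ratio of pre-HSC II to HE, chr8:113462739-113463824 was taken with 0.499 and chr7:58979068-58980057 left out with 0.509. By these 3 measures 44, 66 and 24 regions lay within 0.1 times the threshold of it. The spread between libraries was larger than such steps: the chromosome 8 region had 8.76, 8.97, 28.5 and 12.9 CPM in pre-HSC II against 18.1, 37.9, 35.2 and 27.2 CPM in E10.5 HE, so library 3 taken alone would have kept it out.

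The regions were scattered over all 19 autosomes. The most, 38 (11%), lay on chromosome 3, which holds 5.92% of autosomal peaks and 6.05% of the retained regions, and this was seen rather than tested. The median distance to the nearest other region of the set was 2169904 bp, and 48 regions fell into 23 runs with gaps of at most 50000 bp, 21 of 2 regions and 2 of 3. Their median width was 735.5 bp (282 to 2245), against 495 bp for all autosomal peaks, 831 bp for the retained regions and 1142 bp for the 19305 autosomal peaks with 8 CPM or more in HE of E9.5 and E10.5.

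The levels differed within the longest runs. In the run of 3 on chromosome 11 (89955144 to 89979851) the outer regions were the most open at E8.5, with 71.6, 67.9, 67 and 71.9 CPM in E8.5 HE against 30.5, 39.8, 38.6 and 28 CPM in E8.5 EC at chr11:89955144-89956196 (log2 fold change 1.136, SE 0.33, adjusted p = 0.055 in edgeR). The middle region, chr11:89967213-89968126, had 13.5, 14.6, 25.3 and 19 CPM in E8.5 HE against 25.6, 11.9, 13.9 and 14.7 CPM in E8.5 EC, with overlapping libraries. At E10.5 the 3 regions had HE means of 47.4, 30.6 and 30.5 CPM from left to right, with pre-HSC II means of 11.3, 3.52 and 4.6 CPM. In the run of 3 on chromosome 1 (4592134 to 4644922) all regions had a higher mean in E8.5 HE than in E8.5 EC. The last region, chr1:4643656-4644922, had 44.1, 36.6, 46.5 and 30 CPM in E8.5 HE against 11.2, 9.96, 11.6 and 17.2 CPM in E8.5 EC and was called higher (log2 fold change 1.71, SE 0.35, adjusted p = 0.00373 in edgeR), while chr1:4592134-4593234 and chr1:4603230-4604261 had log2 fold changes of 0.89 (SE 0.33, adjusted p = 0.166) and 1.29 (SE 0.42, adjusted p = 0.105) and were not called. The difference between these folds was not tested. Of the 21 runs of 2 regions, the first by position, on chromosome 1 (64131170 to 64145849), had no call in that test.

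Peaks directly next to one of the regions, 554 in all that were not themselves taken, leaned weakly the same way. Their median log2 ratio of CPM + 1 was 0.43 for E9.5 HE over EC, against 0.09 for all autosomal peaks, and 75.5% of them had the HE mean above the EC mean, against 57.6%. For E10.5 HE over EC the medians were 0.29 and 0.08, and for pre-HSC II over E10.5 HE -0.15 and 0.07. For E8.5 HE over EC they were 0.12 and -0.07. Neighbouring peaks share the libraries of the rule, so these values are a description.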

How the data were processed

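The authors deposited raw read counts per peak for 76018 peaks and 35 libraries, not normalized. The submitters' processing notes name the build mm9, Bowtie 1.0.0, MACS2 2.0.1, DiffBind 1.14.6, Trim Galore 0.3.1, bedtools 2.17.0, deepTools and SAMtools, with no role or setting. Read filters, the shift to the cut site, the assignment to peaks and whether positions count from 0 or 1 are not given in the sources used here. A different filter or shift would change the counts near peak edges. Groups came from the sample titles.

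CPM is the count divided by the library's total over all peaks. The means of 8 CPM, 2 times EC and 0.5 times HE were applied as stated in the report. Values given for pre-HSC I take libraries 2 and 3 as their mean. For the tests, peaks were filtered with filterByExpr by group, which left 67131 and removed 8887 (all 346 regions passed), scaled with TMM and fitted with edgeR 4.0.16 (glmQLFit, glmQLFTest, two-sided) in R 4.3.3, in 1 fit of 34 samples with a mean per group and 25 residual degrees of freedom. The 3 contrasts whose groups the rule did not use were E8.5 HE against E8.5 EC, pro-HSC/HPC against E8.5 HE, and pre-HSC I against pro-HSC/HPC. Calls are at a Benjamini-Hochberg adjusted p of 0.05 over all tested peaks. SEs were taken as the absolute log2 fold change over the square root of F. DESeq2 1.42.0 was an alternative. The script was tested on simulated data. Levels and figures were made in Python 3.11.15 with pandas 2.3.3, numpy 2.4.6 and matplotlib 3.10.9.

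The regions, lists and tests were chosen with earlier results of these data known. Regions are named by fixed rules: the 10 with the widest gap between HE and the other groups of the rule among those whose libraries do not overlap, the 4 with the smallest adjusted p per test and direction, the regions just inside and outside each threshold, and the 3 runs with the most regions, ties taken by position. Others are marked as chosen for their values. Gene names, motifs and markers of cell types were not used here, as no annotation or sequence of mm9 was used, so the labels of the populations were not checked against marker genes. Alternatives were RLE size factors, total counts, no filter, a replicate block, only the groups compared, thinning to 456770 counts, leaving out libraries, and for the rule the median over libraries and TMM-scaled CPM.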

Additional observations from a re-analysis of the deposited data

Results flagged for a closer look

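In groups of 4 libraries of the named regions, 203 in all, 7 had a highest or lowest library far from the other 3, where chance flags about 1 in 20 groups. At chr13:84710512-84711673 E10.5 HE library 4 had 47.2 CPM, with the next at 78 CPM. At chr3:127942807-127943475 E9.5 HE library 3 had 18.5 CPM, with the next at 5.56 CPM, so its E9.5 HE mean above 8 CPM rested on that library. At chr12:46171172-46171992 E10.5 EC library 1 had 23.1 CPM, with the next at 7.82 CPM. At chr1:4603230-4604261 E9.5 HE library 2 had 57.2 CPM, with the next at 33.7 CPM. At chr1:4643656-4644922 E9.5 EC library 2 had 16.8 CPM, with the next at 8.18 CPM. At chr1:64131170-64131594 E9.5 EC library 4 had 0.944 CPM, with the next at 6.55 CPM, and pre-HSC II library 4 had 8.06 CPM, with the other 3 at 0.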

How the results depend on the processing

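The rule found 364 regions by the median over libraries (290 of the 346 among them), 352 after thinning (217), 417 with TMM-scaled CPM (329) and 299 to 388 without 1 library, the lowest without E10.5 HE library 2 and the highest without E10.5 HE library 4. For E8.5 HE against EC, the 58 higher calls became 19 with thinning, 3 without E8.5 libraries 1 and 2, 91 with DESeq2 and 29 to 48 without 1 library; the 1 lower call became 2 with only the groups compared, 0 with thinning, 0 without E8.5 libraries 1 and 2, 2 with DESeq2 and 0 to 1 without 1 library. The region behind that 1 call was not tested with only the groups compared. For pre-HSC I against pro-HSC/HPC, 3 regions were higher when libraries 2 and 3 of pre-HSC I entered separately, 7 higher and 1 lower with DESeq2, 0 to 5 higher without 1 library (5 without pre-HSC I library 2) and 0 to 0 lower. For pro-HSC/HPC against E8.5 HE, the 31 higher calls became 9 with thinning, 12 without E8.5 libraries 1 and 2 and 14 to 33 without 1 library; the 16 lower calls became 28 with only the groups compared, 4 without E8.5 libraries 1 and 2, 25 with DESeq2 and 3 to 15 without 1 library. Thinning left 206 of the 346 regions to test. With only the groups compared, 247 were tested for E8.5 HE against EC, 320 for pre-HSC I against pro-HSC/HPC and 324 for pro-HSC/HPC against E8.5 HE. The cause of the other changes was not tested. No fold change of a named, called region turned its sign. The median log2 fold change of the 346 regions did: for pre-HSC I against pro-HSC/HPC, 0.24 became -0.03 without pre-HSC I library 1, and for pro-HSC/HPC against E8.5 HE, 0.0039 ran from -0.22 with thinning (9 regions higher, 14 lower) to 0.12 without pro-HSC/HPC library 3, with -0.10 for RLE size factors and -0.12 for DESeq2. Correlations of same-numbered libraries' deviations were 0.03 to 0.065, -0.02 to -0.003 and -0.01 to 0.01 in the 3 comparisons, so the numbers were not taken to pair samples. At E8.5, libraries 1 and 2 of HE correlated with libraries 1 and 2 of EC, and 3 and 4 with 3 and 4 (0.024 to 0.073), while all 8 pairs across this split were negative (-0.058 to -0.026). With the replicate number as a block the calls were 63 higher and 1 lower, 0 higher and 0 lower, and 26 higher and 19 lower. Total-count scaling gave a median log2 fold change of -0.09 over all tested peaks at E8.5, where TMM gave 0.02. Depth limits pre-HSC II most.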

Other observations

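On chromosome X, which the rule leaves out, 14 peaks met the conditions on HE and EC and 10 of them also the condition on pre-HSC II.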
